A study of Mus musculus with 19 samples.

Results

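The genes described here encode 10 alpha subunits of heterotrimeric G proteins: Gnas, Gnal, Gnai1, Gnai2, Gnai3, Gnao1, Gnaz, Gnaq, Gna11 and Gna12. They were found by their symbols among the 22193 genes of the expression tables, and all 10 were present. RNA came from the whole cerebellum of 19 C57BL/6 mice aged 60 postnatal days. They comprised 3 wild-type animals (Ctrl), 8 in which Gsa, the product of Gnas, was conditionally knocked out by Olig1Cre (Olig1-Gnas), and 8 in which the Cre was hGFAPCre (hGFAP-Gnas). The Olig1 promoter is active in oligodendrocyte lineage cells and the human GFAP promoter in neural progenitors and radial glia, so each knockout tissue may also hold cells in which Gnas was never deleted. In which cells either Cre acted, granule neuron progenitors included, cannot be told from the expression values. Neither the exons that the conditional allele removes nor any Cre or floxed allele in the Ctrl mice is given in the sources used here. In its title the series calls Gsα a tumor suppressor in Sonic hedgehog medulloblastoma, and the deposited table of hGFAP-Gnas carries the word tumor in its name.

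A G protein couples a receptor to its effectors: on activation the alpha subunit binds GTP and parts from its beta-gamma partner, and its own GTPase activity ends the signal. Gsα, from Gnas, and Golf, from Gnal, stimulate adenylyl cyclase and raise cAMP, whereas the Gi subunits, from Gnai1, Gnai2 and Gnai3, and Gz, from Gnaz, inhibit it. Go, from Gnao1, is the abundant alpha subunit of neurons and acts largely through its beta-gamma partner, Gq and G11, from Gnaq and Gna11, activate phospholipase C beta, and Gna12 encodes G12, of a further class. In granule neuron progenitors of the cerebellum, cAMP and protein kinase A oppose the Sonic hedgehog pathway, which is itself activated through Smoothened.

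Levels below are FPKM, fragments scaled by transcript length and by the size of the library, and can therefore be compared between genes. The number of reads behind them is unknown. Relative depth, inferred from steps among the lowest values, was 0.829 to 1.06 of Ctrl 2 in 10 deeper libraries (Ctrl 1, Ctrl 2, the second 4 of Olig1-Gnas and the first 4 of hGFAP-Gnas) and 0.270 to 0.438 in the remaining 9. Signal of the Y-linked Ddx3y was present in 2 Ctrl, 2 Olig1-Gnas and 7 hGFAP-Gnas libraries. Changes were tested with limma on log2(FPKM + 1) for genes reaching 1 FPKM in 3 or more libraries, with Benjamini-Hochberg adjustment over all of them, and a gene is said to be called, or to have risen or fallen, where the adjusted p was below 0.05. On this scale the change of a gene near 1 FPKM is understated. Both comparisons with wild type use the same 3 Ctrl mice and so are not independent of each other.

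Gnas itself, the targeted gene (mm9 chromosome 2, 174106738 to 174172243), was high in Ctrl libraries where it had a value and lower in every knockout library where it had one, but many of its values are listed as exactly 0. In the table of Olig1-Gnas, Ctrl 1 held 651 FPKM, Ctrl 2 held 798 FPKM and Ctrl 3 is listed at 0. The Olig1-Gnas libraries 2, 3, 4, 5 and 7 held 117, 24.1, 33.3, 52.9 and 121 FPKM, and the remaining 3 have a listed 0. The table of hGFAP-Gnas holds values above 0 for only Ctrl 2, at 798 FPKM, and hGFAP-Gnas 5, at 40.9 FPKM. Ctrl 1 thus stands at 651 FPKM in one table and at 0 in the other, although it is the same library, so a listed 0 of Gnas need not mean an absent transcript. Ctrl 1 was at 0 in one table and at 1 FPKM or more in the other for 28 genes, 10 of them above 0 only in the table of Olig1-Gnas and 18 only in that of hGFAP-Gnas, and Ctrl 2 and Ctrl 3 were identical in both.

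Among the values above 0, Gnas was lower in Olig1-Gnas than in Ctrl by a log2 difference of -3.63 (5 libraries against 2, two-sided exact permutation p = 0.0476, the smallest that 21 arrangements allow), and all 5 lay below both Ctrl values. With the zeros taken as listed, the difference was -2.67 over 8 against 3 libraries, with a two-sided exact permutation p of 0.388. For hGFAP-Gnas, the single value above 0 lay below the single Ctrl value (log2 difference -4.25), with no replicate and so no test. With zeros as listed it was -2.54 (two-sided exact permutation p = 0.273, 8 against 3 libraries). Whether the whole-gene values include reads from the undeleted part of the transcript cannot be told from these tables, so they do not measure how complete the deletion was.

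A second gene of the locus can be set beside these zeros. Nespas, a non-coding gene transcribed antisense to Gnas from the same locus, was at 0 in all 4 libraries of the table of Olig1-Gnas in which Gnas was at 0, and above 0 in 6 of the 7 in which Gnas was above 0. In the table of hGFAP-Gnas, Nespas was at 0 in all 9 libraries with Gnas at 0 and above 0 in 1 of the other 2. Nespas was near the floor throughout, with its highest level, 1.99 FPKM, in Olig1-Gnas 5. It was at 0 in Ctrl 2, where Gnas held 798 FPKM, so a 0 of Nespas says little about a 0 of Gnas. Zeros in some libraries beside 1 FPKM or more in every other library were not particular to Gnas. With Olig1-Gnas 398 genes had them and with hGFAP-Gnas 385, and Gnal, with a single 0, was the one further alpha subunit among these. Of the 398 and 385 genes, 143 and 154 were at 0 in 8 or more libraries. The limit of 1 FPKM also admits genes of low level, whereas Gnas above 0 held 24.05 to 798 FPKM. How many genes as high as Gnas had such zeros was not counted. Gnas has several alternative first exons, and the deposited table gives 1 value for the gene, so its transcripts could not be separated. Whether counting used strand is not given in the sources used here, and reads of Gnas and Nespas cannot be told apart without it.

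In the Olig1-Gnas cerebellum the other alpha subunits moved in both directions, also within a class. Gnai2, Gnai3 and Gna12 rose, Gnal, Gnai1, Gnao1, Gnaz and Gnaq fell, and Gna11 was not called. All 10 genes were tested, 3 were called higher, 5 lower and 2, Gna11 and Gnas with its zeros as listed, were not called. Over all 14183 genes tested 59.8% were called, 36.2% higher and 23.6% lower, so a called gene is the common case in this comparison and the count of members is to be read against that share. The median log2 change of the 10 members, with Gnas and its listed zeros among them, was -0.79, beside 0.22 over all genes. Without Gnas the middle change was that of Gnaq, -0.39.

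**Figure D1:**
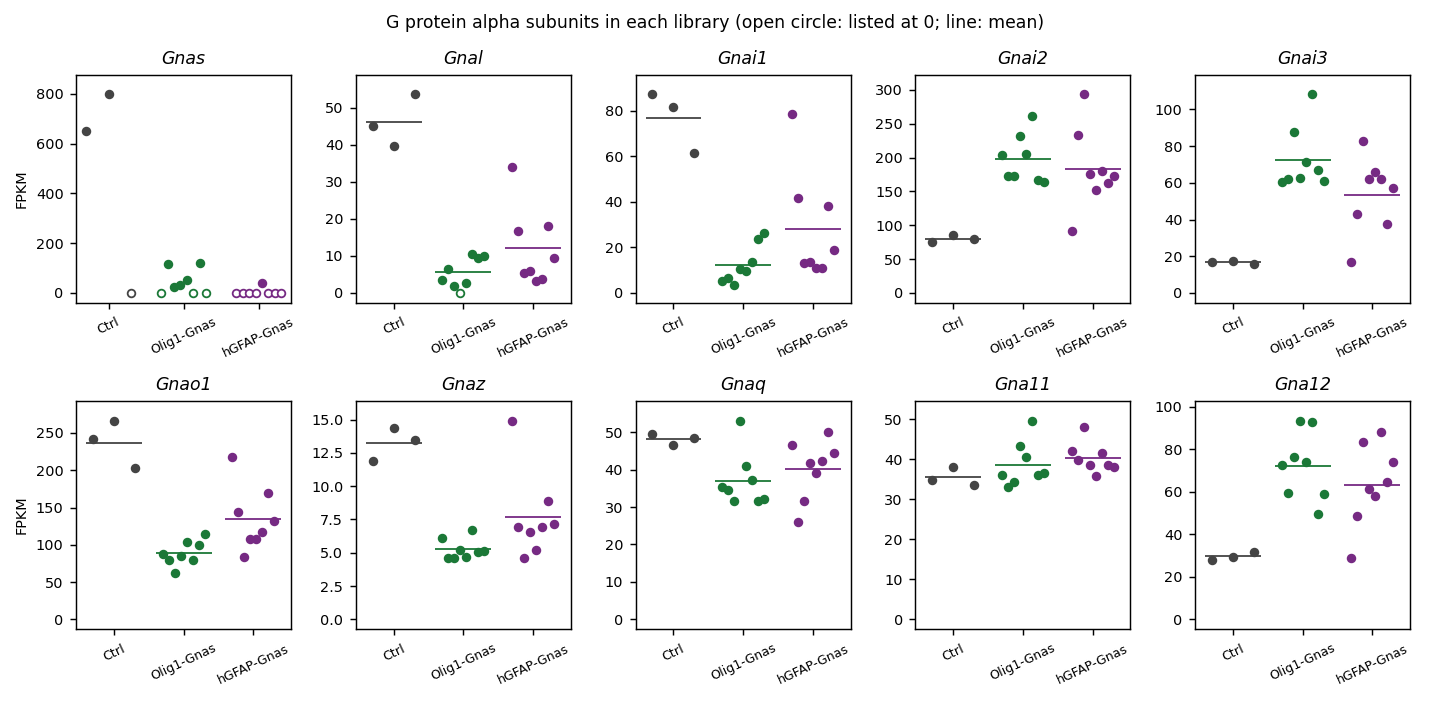
FPKM of each of the 10 alpha subunits (vertical axis, linear, 1 panel per gene) in every library of Ctrl, Olig1-Gnas and hGFAP-Gnas, in order of replicate number within a group; filled points are values above 0, open points are listed at 0, lines are group means (none for Gnas), and Ctrl values are those of the table of Olig1-Gnas. Gnai2 lay between 74.6 and 85.04 FPKM in Ctrl and above that in all 16 knockout libraries, while Gnal lay below Ctrl in all 16.

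Gnal, the close relative of Gnas that serves dopamine and odorant receptors (mm9 chromosome 18, 67247990 to 67405484), held 45.1, 39.6 and 53.6 FPKM in Ctrl 1, 2 and 3. In Olig1-Gnas its lowest, median and highest levels were 0, 4.995 and 10.5 FPKM. The 0 is in Olig1-Gnas 4, and every library of the group lay below every Ctrl library. The log2 change was -3.18 ± 0.65 (SE, adjusted p = 0.00129), and -2.85 without Olig1-Gnas 4 (adjusted p = 0.000257). Mean Gnal was 46.1 ± 7.04 FPKM in Ctrl (SD, n = 3) and 5.57 ± 4.06 in Olig1-Gnas (SD, n = 8).

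The 3 Gi genes did not move together. Gnai1 (mm9 chromosome 5, 17770953 to 17866231) held 87.2, 81.7 and 61.7 FPKM in Ctrl and 3.48, 10.1 and 26.4 FPKM at its lowest, median and highest in Olig1-Gnas. It fell by 2.77 on the log2 scale (-2.77 ± 0.49, adjusted p = 0.000512), and the groups did not overlap. Gnai2 (mm9 chromosome 9, 107516469 to 107537673), the Gi gene most widely expressed outside neurons, held 74.6, 85.04 and 80.2 FPKM in Ctrl and 165, 188 and 261 FPKM at its lowest, median and highest in Olig1-Gnas. Its log2 change was 1.28 ± 0.15 (adjusted p = 2.20e-05), with no overlap. Gnai3, the ubiquitous Gi gene (mm9 chromosome 3, 107910217 to 107949032), was low and even in Ctrl at 16.9, 17.5 and 15.6 FPKM. It stood at 60.5, 64.7 and 108 FPKM (lowest, median, highest) in Olig1-Gnas, a log2 change of 2.03 ± 0.17 (adjusted p = 1.57e-06), and every Olig1-Gnas library was above every Ctrl library. Among the 9 subunits other than Gnas, Gnai3 had the largest rise and Gnal the largest fall on this scale.

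Gnao1, which encodes Go (mm9 chromosome 8, 96334738 to 96493288), was the highest of the 9 subunits other than Gnas in every Ctrl library, at 242, 266 and 203 FPKM. In Olig1-Gnas it stood at 61.5, 86.4 and 114 FPKM (lowest, median, highest), below Ctrl throughout. The log2 change was -1.42 ± 0.17 (adjusted p = 2.66e-05). Gnaz, the Gz subunit found mostly in neurons and platelets (mm9 chromosome 10, 74420222 to 74495331), held 11.9, 14.4 and 13.5 FPKM in Ctrl and 4.60, 5.08 and 6.68 FPKM (lowest, median, highest) in Olig1-Gnas. It fell by 1.19 on the log2 scale (-1.19 ± 0.15, adjusted p = 4.00e-05), again without overlap.

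The Gq pair moved least. Gnaq (mm9 chromosome 19, 16207321 to 16461943) held 49.4, 46.5 and 48.5 FPKM in Ctrl and 31.5, 35.1 and 53.1 FPKM at its lowest, median and highest in Olig1-Gnas. Of the 8 libraries 7 were below every Ctrl library, and Olig1-Gnas 4 was above all of them. The log2 change of -0.39 ± 0.15 was called (adjusted p = 0.0423), but the call was lost without any 1 of the 3 Ctrl libraries (adjusted p 0.0868 to 0.121) and without any 1 of Olig1-Gnas 1, 2, 3, 7 or 8. Without Olig1-Gnas 4 the change was -0.46 (adjusted p = 0.00386). Gna11 (mm9 chromosome 10, 80991477 to 81007791) held 34.9, 38.2 and 33.7 FPKM in Ctrl and 33.1, 36.3 and 49.6 FPKM (lowest, median, highest) in Olig1-Gnas, and the groups overlapped. Its log2 change of 0.11 ± 0.13 was not called (adjusted p = 0.489), and its sign turned under upper quartile scaling (-0.07) and quantile normalization (-0.07).

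Gna12 (mm9 chromosome 5, 141235898 to 141306385) held 27.7, 29.3 and 31.9 FPKM in Ctrl and 49.3, 73.5 and 93.5 FPKM at its lowest, median and highest in Olig1-Gnas. All 8 libraries were above Ctrl, and the log2 change was 1.23 ± 0.19 (adjusted p = 0.000145).

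In the hGFAP-Gnas cerebellum the same 3 genes were called higher, and Gnal, Gnai1, Gnao1 and Gnaz were called lower. Gnaq and Gna11 were not called, and Gnas did not pass the filter, so 9 of the 10 were tested. Over all 14305 genes tested 38.9% were called, 26.1% higher and 12.8% lower; the higher calls were 67.1% of all calls, and 49.0% of them under quantile normalization. The 7 called alpha subunits kept direction and call under quantile normalization and upper quartile scaling. The median log2 change of the 9 was -0.28, beside 0.19 over all genes. These 7 calls rest on all 3 Ctrl libraries: without any 1 of them none of the 7 was called (adjusted p 0.0550 to 0.127 over the 7 genes and the 3 Ctrl libraries), and every direction was kept.

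**Figure D2:**
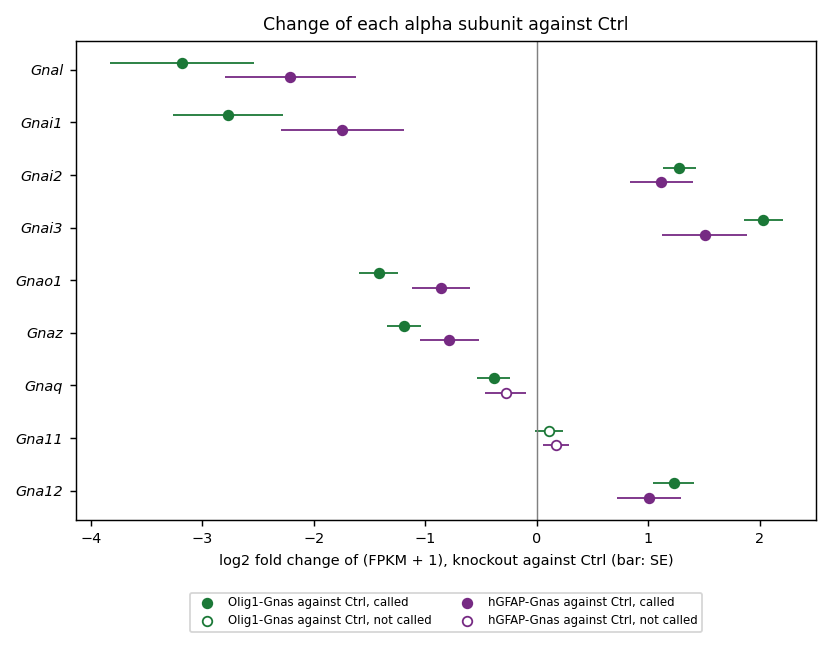
Log2 fold change of (FPKM + 1) against Ctrl (horizontal axis) of the 9 alpha subunits other than Gnas, in Olig1-Gnas (green) and hGFAP-Gnas (purple); bars are standard errors, filled points were called at an adjusted p under 0.05 and open points were not. Gnai2, Gnai3 and Gna12 lie to the right of 0 and Gnal, Gnai1, Gnao1 and Gnaz to the left for each knockout. Errors were wider in hGFAP-Gnas, except for Gnal and Gna11.

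The spread among hGFAP-Gnas libraries was wide. Gnal held 3.17, 7.67 and 34.1 FPKM at its lowest, median and highest, below Ctrl in all 8 libraries (log2 change -2.21 ± 0.58, adjusted p = 0.0170). Gnai1 held 10.8, 16.4 and 78.5 FPKM (log2 change -1.74 ± 0.55, adjusted p = 0.0306). Its highest value, in hGFAP-Gnas 1, lay within the Ctrl range, and the other 7 lay below it.

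Gnai2 held 91.1, 174 and 293 FPKM at its lowest, median and highest, all above Ctrl (log2 change 1.12 ± 0.28, adjusted p = 0.0152). Gnai3 held 16.8, 59.6 and 82.8 FPKM (log2 change 1.51 ± 0.38, adjusted p = 0.0149). The lowest Gnai3 value was that of hGFAP-Gnas 1, within the Ctrl range, and the other 7 were above it. Gna12 held 28.8, 63.0 and 88.2 FPKM at its lowest, median and highest (log2 change 1.01 ± 0.28, adjusted p = 0.0207), with hGFAP-Gnas 1 again within the Ctrl range.

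Gnao1 held 83.1, 125 and 218 FPKM (lowest, median, highest) in hGFAP-Gnas, with 7 libraries below Ctrl and hGFAP-Gnas 1 within its range (log2 change -0.86 ± 0.26, adjusted p = 0.0268). Gnaz held 4.61, 6.93 and 14.9 FPKM (log2 change -0.79 ± 0.27, adjusted p = 0.0383). Its highest value, in hGFAP-Gnas 1, was above every Ctrl library and the other 7 were below. Gnaq held 26.0, 42.1 and 50.03 FPKM (log2 change -0.28 ± 0.19, adjusted p = 0.235), and Gna11 held 35.8, 39.3 and 48.1 FPKM (log2 change 0.17 ± 0.11, adjusted p = 0.239). One library, hGFAP-Gnas 1, thus stood nearest to Ctrl for Gnai1, Gnai2, Gnai3, Gnao1, Gnaz, Gna12 and Gnal. Without it the changes were larger in size for each of the 7 called genes, with Gnai3 at 1.72 and Gnai1 at -2.0.

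Set against each other, the 2 knockouts were not separated at any of the 10 genes by limma, where 0.410% of 14386 genes tested were called. Before adjustment, 4 of the 10 had a limma p below 0.05. They were Gnao1, with a log2 difference of Olig1-Gnas minus hGFAP-Gnas of -0.56 ± 0.18 (adjusted p = 0.141), Gnai1 (-1.03 ± 0.45, adjusted p = 0.190), Gnaz (-0.40 ± 0.18, adjusted p = 0.193) and Gnas with its zeros as listed (2.99 ± 1.23, adjusted p = 0.180). Gnas was listed at 0 in 3 Olig1-Gnas and 7 hGFAP-Gnas libraries, and its difference counts these zeros. The 1 hGFAP-Gnas value above 0 (40.89 FPKM) lay within the Olig1-Gnas values above 0 (24.05 to 121.5 FPKM). Under other settings the Gnas difference ran from 0.48 to 4.64 and stayed uncalled. Mean Gnao1 was 88.9 ± 16.6 FPKM in Olig1-Gnas and 135 ± 42.3 in hGFAP-Gnas (SD, n = 8 each), and the 2 ranges overlapped. The difference in Gnai2 was 0.16 ± 0.19, and its sign turned under quantile normalization (-0.01) and when the fit held a Y-linked term (-0.08). The lack of a call does not show that the 2 tissues are alike in these genes.

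The order of levels changed with genotype. In Ctrl, leaving out Gnas, mean levels ran from Gnao1 (237 ± 32.1 FPKM) over Gnai2 (80.0 ± 5.20), Gnai1 (76.9 ± 13.4), Gnaq (48.2 ± 1.49), Gnal (46.1 ± 7.04), Gna11 (35.6 ± 2.32), Gna12 (29.6 ± 2.08) and Gnai3 (16.7 ± 0.991) to Gnaz (13.2 ± 1.27) (SD, n = 3). Gnai2 and Gnai1 overlapped, as did Gnaq and Gnal, and the other neighbours did not. In Olig1-Gnas, Gnai2 came first at 197 ± 35.0 FPKM, above Gnao1 in all 8 libraries. Gnao1, Gnai3 (72.5 ± 16.9) and Gna12 (72.2 ± 15.9) followed, then Gna11 (38.7 ± 5.52) and Gnaq (37.1 ± 7.22). Last came Gnai1 (12.4 ± 8.48), Gnal and Gnaz (5.26 ± 0.745). Neighbours in this order overlapped, except Gnai2 with Gnao1 and Gnaq with Gnai1. In hGFAP-Gnas all neighbours overlapped, and Gnai2 was above Gnao1 in 6 of 8 libraries.

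Because Gnai2 rose while Gnao1 fell, their ratio was examined as a single value per library. The log2 ratio of Gnai2 to Gnao1 was -1.55 ± 0.19 in Ctrl (SD, n = 3), 1.15 ± 0.40 in Olig1-Gnas, with a range of 0.52 to 1.70, and 0.42 ± 0.86 in hGFAP-Gnas, with a range of -1.25 to 1.81 (SD, n = 8 each). It was higher than every Ctrl value in all 8 Olig1-Gnas and all 8 hGFAP-Gnas libraries. The differences were 2.70 and 1.97, and for each the two-sided exact permutation p was 0.00606, the lowest possible with 165 arrangements. Within the deeper libraries the differences were 2.65 (two-sided exact permutation p = 0.0667) and 2.15 (p = 0.2), and within the shallower ones 2.64 and 1.69 (p = 0.2 each, the smallest that 4 libraries against 1 allow). The pair was chosen with the opposite changes of these genes already known, so the ratio is no separate evidence of them.

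**Figure D3:**
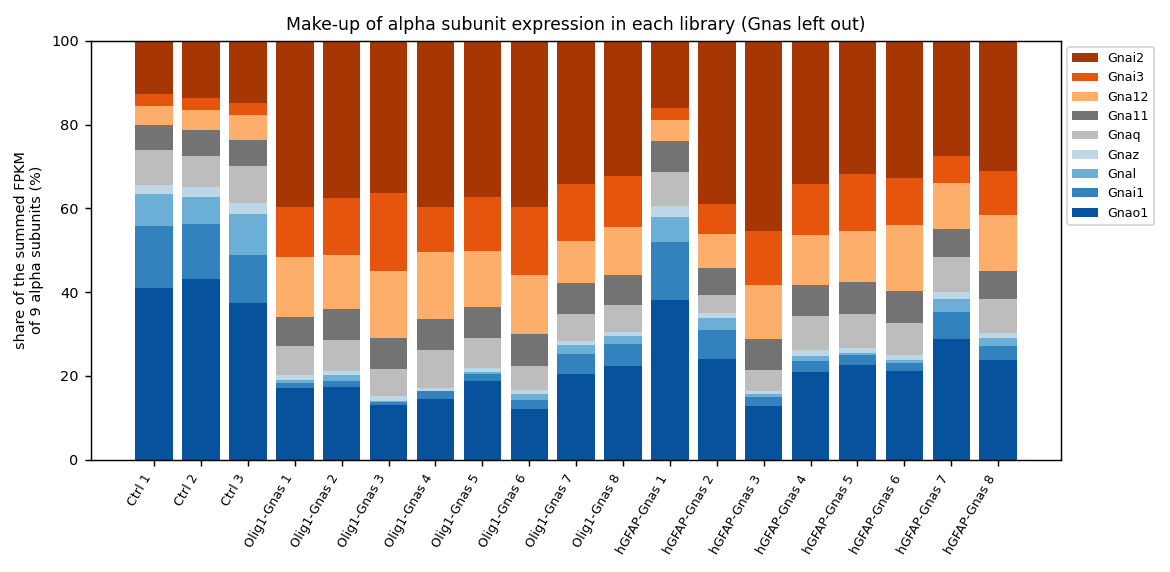
Share of the summed FPKM of 9 alpha subunits (vertical axis, percent; Gnas left out because of its zeros) taken by each gene in each of the 19 libraries (bars). Gnao1 took 37.5 to 43.1% in Ctrl and 12.1 to 22.4% in Olig1-Gnas, and the share in hGFAP-Gnas 1 lies within the Ctrl range.

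The summed level of the 9 genes overlapped between the groups. It was 583 ± 39.0 FPKM in Ctrl, 530 ± 66.5 in Olig1-Gnas and 563 ± 51.7 in hGFAP-Gnas (SD), while the make-up shifted. The share of Gnao1 was 40.5 ± 2.84% in Ctrl, 16.96 ± 3.61% in Olig1-Gnas and 24.1 ± 7.23% in hGFAP-Gnas. The share of the 3 Gi genes together was 29.7 ± 0.611%, 53.2 ± 2.58% and 46.8 ± 8.18%, and within it Gnai1 went from 13.1 ± 1.70% in Ctrl to 2.36 ± 1.70% in Olig1-Gnas while Gnai2 went from 13.7 ± 1.08% to 37.1 ± 2.74%. Gnaq and Gna11 together held 14.4 ± 0.753%, 14.3 ± 1.03% and 14.4 ± 1.76%. These are shares of transcript level and say nothing of protein.

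Markers of the cell types of the tissue moved with these genes. In bulk tissue, fewer cells of a type and less RNA per cell cannot be told apart. The counts of called markers are to be read against the shares of all genes. Those were 59.8% called in Olig1-Gnas (36.2% higher, 23.6% lower) and 38.9% in hGFAP-Gnas (26.1% higher, 12.8% lower). All 6 granule neuron markers and all 6 Purkinje markers were called lower in Olig1-Gnas, and 6 and 5 in hGFAP-Gnas. The summed granule neuron markers, led by Gabra6, ranged over 1441 to 1840 FPKM in Ctrl, while the Olig1-Gnas libraries held 38.9 to 370 and the hGFAP-Gnas libraries 74.3 to 1078, and the Purkinje markers, led by Calb1, over 1620 to 2666, 10.9 to 441 and 64.1 to 1318. All 5 inhibitory interneuron markers, led by Gad1, were called lower in each knockout. The 4 markers of dividing cells, led by Mki67, summed to 0.716 to 1.32 FPKM in Ctrl, against 324 to 704 (Olig1-Gnas) and 9.11 to 495 (hGFAP-Gnas), and all 4 were called higher in each, as were the 4 granule neuron progenitor markers, led by Atoh1. The 6 microglia and macrophage markers, led by Cd68, summed to 43.5 to 62.3, 347 to 1206 and 86.2 to 755 FPKM, with 5 and 6 called higher. Mature oligodendrocyte markers, led by Mog, were called lower for 6 of 6 genes in Olig1-Gnas and 1 of 6 in hGFAP-Gnas, and the 3 oligodendrocyte precursor markers, led by Pdgfra, were called higher in each. Bergmann glia and astrocyte markers, led by Gdf10, had 3 lower and 1 higher of 5 in Olig1-Gnas and 2 lower and 1 higher in hGFAP-Gnas. By limma 0 choroid plexus, meninges and blood markers were called (at an unadjusted p under 0.05, 0 in Olig1-Gnas and, in hGFAP-Gnas, 1 meninges and 1 blood marker), and of 5 vascular markers 2 were lower in Olig1-Gnas. The choroid plexus gene Ttr reached 1195 FPKM in a Ctrl, 2317 in an Olig1-Gnas and 863 in an hGFAP-Gnas library, with group medians of 4.67 to 7.08 FPKM. Their part in the changes of the alpha subunits was not tested.

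**Figure D4:**
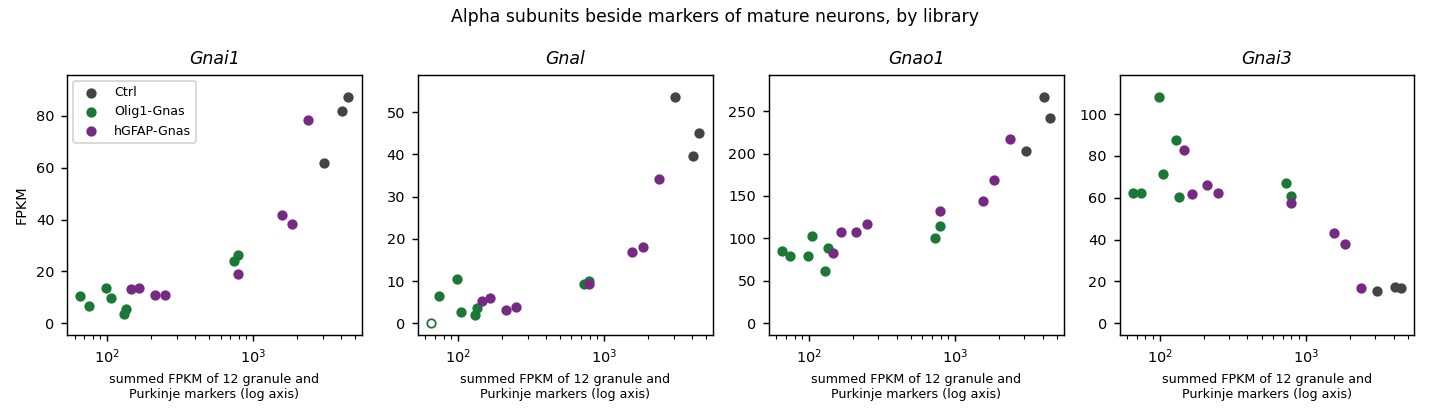
FPKM of Gnai1, Gnal, Gnao1 and Gnai3 (vertical axis, linear) against the summed FPKM of the 6 granule neuron and 6 Purkinje markers (horizontal axis, logarithmic), 1 point per library, coloured by group; the open point is listed at 0. hGFAP-Gnas 1, with 2395 FPKM of markers, lies nearest to the Ctrl points in the panels of Gnai1, Gnal and Gnao1.

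Library by library, hGFAP-Gnas 1, 7 and 2 kept the most of these 12 neuron markers among the knockouts, at 2395, 1862 and 1567 FPKM in sum. In those libraries Gnai1 stood at 78.5, 38.3 and 41.6 FPKM and Gnal at 34.1, 18.1 and 16.8 FPKM, their 3 highest knockout levels. Olig1-Gnas 8 and 7, with 795 and 736 FPKM of markers, had the 2 highest Gnai1 levels of that group, 26.4 and 23.9 FPKM. Gnal broke this order: its highest level in that group was 10.5 FPKM in Olig1-Gnas 6, with 98.4 FPKM of markers, above 10.01 and 9.36 FPKM in Olig1-Gnas 8 and 7. Gnai3 was lowest among knockouts in hGFAP-Gnas 1, 7 and 2, at 16.8, 37.7 and 42.9 FPKM. Gnaq did not follow the order of the markers either: it stood at 46.5 FPKM in hGFAP-Gnas 1, 26.0 in hGFAP-Gnas 2 and 53.1 in Olig1-Gnas 4, which held the least of the markers at 65.8 FPKM.

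The genes whose log2 levels most resembled each subunit over the 19 libraries, out of 13632 genes compared, are given as a description; the libraries share groups and tissue make-up. Genes with a listed 0 in any library were left out, so Gnas and Gnal were not compared. For Gnai1 they were Trim9 (Pearson r = 0.989) and Olfm1 (0.984), both known from neurons, and for Gnao1 Rapgefl1 (0.979) and Tspyl4 (0.978). For Gnai3 they were Mapre1, a microtubule plus-end protein, and Cbx2, a Polycomb subunit (0.991 each). For Gnai2 they were Hmox1, heme oxygenase 1 (0.969), and Arpc5, of the Arp2/3 complex (0.960), and for Gna12 Rbm15b (0.955) and Dchs1 (0.954). For Gnaz they were Pcsk1, a prohormone convertase (0.972), and Kif1a, an axonal kinesin (0.955). Within the 16 knockout libraries alone the r of Trim9 with Gnai1 was 0.983, of Cbx2 with Gnai3 0.984 and of Hmox1 with Gnai2 0.927. The likeness was lower for Gnaq, with Dip2c (0.905) and Gbf1 (0.892), and for Gna11, with Med25 (0.884) and 4931440P22Rik (0.873).

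Of the 9, 5 lie near another alpha subunit gene in mm9, at the distances given here, and these nearby genes were scarcely expressed. Whether other genes lie between them was not examined. Gnai1 lies 245 kb from Gnat3, which was listed at 0 in all 19 libraries, and Gnai2 lies 39.1 kb from Gnat1, which reached at most 0.450 FPKM. Gnai3 lies 6.01 kb from Gnat2 (at most 0.198 FPKM) and Gnaq lies 48.2 kb from Gna14 (at most 0.342 FPKM). The transducins Gnat1 and Gnat2 and the taste subunit Gnat3 belong to sensory cells. Gna11 lies 4.51 kb from Gna15, the alpha subunit of blood cells, which held 0.191 to 3.78 FPKM. Gna15 rose from 0.323 ± 0.172 FPKM in Ctrl to 1.66 ± 1.08 in Olig1-Gnas (log2 change 0.92 ± 0.32, adjusted p = 0.0250) and 2.06 ± 0.983 in hGFAP-Gnas (1.14 ± 0.30, adjusted p = 0.0165), while Gna11 near it was not called in either. Gna13, the other gene of the G12 class, rose as Gna12 did, from 16.01 ± 1.68 to 34.4 ± 7.50 FPKM in Olig1-Gnas (log2 change 1.04 ± 0.18, adjusted p = 0.000325) and 31.2 ± 1.69 in hGFAP-Gnas (0.92 ± 0.11, adjusted p = 0.00172). Gna13 and Gna15 were the 2 genes that passed the filter among the 6 remaining alpha subunit genes.

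The partners and effectors of the alpha subunits were called in mixed directions, and their counts are to be read against the shares of all genes given above, 59.8% called in Olig1-Gnas (36.2% higher, 23.6% lower) and 38.9% in hGFAP-Gnas (26.1% higher, 12.8% lower). Of 4 beta subunit genes tested, 2 were called higher and 1 lower in Olig1-Gnas and 1 higher and 1 lower in hGFAP-Gnas. Gnb5, which pairs with RGS proteins in neurons, went from 116 ± 13.2 FPKM in Ctrl to 29.5 ± 11.3 in Olig1-Gnas (log2 change -2.01 ± 0.27, adjusted p = 5.34e-05) and Gnb2 from 99.6 ± 11.7 to 218 ± 29.3 (1.12 ± 0.13, adjusted p = 2.38e-05). In hGFAP-Gnas their log2 changes were -1.40 ± 0.32 and 1.03 ± 0.24. Gnb1 was higher in Olig1-Gnas by 0.32 ± 0.10, beside a median log2 change of 0.22 over all genes.

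Of 10 gamma subunit genes tested, 4 were called higher in each knockout, with 2 lower in Olig1-Gnas and 1 in hGFAP-Gnas, so the count in Olig1-Gnas is close to the share of all genes. Gng13 fell from 468 ± 55.8 FPKM in Ctrl to 33.4 ± 55.3 in Olig1-Gnas (log2 change -5.74 ± 1.52, adjusted p = 0.00823) and 119 ± 111 in hGFAP-Gnas (-2.82 ± 1.00, adjusted p = 0.0448), and 2 Olig1-Gnas libraries are listed at 0. Gng10 and Gng5 rose in Olig1-Gnas by 1.92 ± 0.15 and 1.67 ± 0.17, and in hGFAP-Gnas by 1.55 ± 0.44 and 1.16 ± 0.41.

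RGS proteins speed the GTPase step that switches alpha subunits off. Of 17 tested, 6 were called higher and 6 lower in Olig1-Gnas and 7 higher and 4 lower in hGFAP-Gnas, and the share higher in Olig1-Gnas is close to that of all genes. Rgs8, a Purkinje cell RGS protein, fell from 272 ± 77.9 FPKM in Ctrl to 10.3 ± 15.2 in Olig1-Gnas (log2 change -5.63 ± 1.00, adjusted p = 0.000719) and 65.9 ± 76.5 in hGFAP-Gnas (-3.06 ± 1.06, adjusted p = 0.0411). Rgs7 and Rgs6, which act on Go and Gi with Gnb5, fell in Olig1-Gnas (log2 changes -2.58 ± 0.44 and -2.25 ± 0.29) and in hGFAP-Gnas (-1.69 ± 0.39 and -1.54 ± 0.33). Rgs12 rose from 4.14 ± 0.340 FPKM in Ctrl to 17.6 ± 3.37 in Olig1-Gnas (1.84 ± 0.16, adjusted p = 2e-06) and 16.6 ± 5.06 in hGFAP-Gnas (1.72 ± 0.27, adjusted p = 0.00607). Rgs13 was listed at 0 in all 3 Ctrl libraries, held 0 to 2.94 FPKM in Olig1-Gnas, where it was not called, and 0.0279 to 7.17 FPKM in hGFAP-Gnas.

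GoLoco proteins bind Gi and Go subunits in the GDP state, and Ric8 chaperones help alpha subunits fold. Of 4 genes tested in the list of these, 3 (Gpsm1, Gpsm2 and Gpsm3) were called higher and none lower in each knockout. Pcp2, a GoLoco protein of Purkinje cells that was listed among the Purkinje markers and not here, fell from 845 ± 275 FPKM in Ctrl to 66.6 ± 76.1 in Olig1-Gnas (log2 change -5.14 ± 1.72, adjusted p = 0.0261) and 217 ± 223 in hGFAP-Gnas (-2.83 ± 1.01, adjusted p = 0.0453); it was chosen after its values were seen. Gpsm2 went from 1.92 ± 0.129 FPKM in Ctrl to 18.9 ± 3.30 in Olig1-Gnas (log2 change 2.75 ± 0.17, adjusted p = 6.94e-08) and 14.9 ± 6.43 in hGFAP-Gnas (2.30 ± 0.42, adjusted p = 0.00731). Gpsm3 rose by 1.21 ± 0.39 and 1.12 ± 0.29, and Gpsm1 by 0.96 ± 0.25 and 0.78 ± 0.14. Ric8b, the chaperone of Gsα and Golf, was not called in either comparison, at 18.96 ± 1.75 FPKM in Ctrl, 22.5 ± 1.34 in Olig1-Gnas and 21.5 ± 2.90 in hGFAP-Gnas; it falls outside the rule for named genes and was chosen after its values were seen.

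Of the direct effectors, 15 were tested in Olig1-Gnas, with 3 called higher and 8 lower, and 16 in hGFAP-Gnas, with 4 higher and 5 lower. Adcy1, the neuronal calcium-stimulated adenylyl cyclase, fell from 263 ± 29.4 FPKM in Ctrl to 16.6 ± 18.2 in Olig1-Gnas (log2 change -4.49 ± 0.74, adjusted p = 0.000375) and 76.2 ± 88.5 in hGFAP-Gnas (-2.53 ± 0.83, adjusted p = 0.0344). Plcb4, the phospholipase C of Purkinje cells downstream of Gq, fell in both knockouts (log2 changes -2.57 ± 0.23 and -1.82 ± 0.47), while mean Gnaq was 48.2 FPKM in Ctrl, 37.1 in Olig1-Gnas and 40.2 in hGFAP-Gnas. Adcy9, the cyclase least sensitive to forskolin, fell too (-2.24 ± 0.21 and -1.57 ± 0.48).

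Promoter sequences are shown for Gnai3 and Gna12, which rose, and for Gnai1 and Gnao1, which fell, so that the start regions of subunits that moved in opposite directions can be read side by side. Each is the 250 bases before the annotated start in RefSeq on GRCm38.p6, 5′ to 3′ on the strand of the gene, at chr3:108146153-108146402 (minus strand), chr5:140830432-140830681 (minus strand), chr5:18360414-18360663 (minus strand) and chr8:93810588-93810837 (plus strand). Capitals mark GC boxes (GGGCGG or its reverse complement CCGCCC).
Gnai3 promoter: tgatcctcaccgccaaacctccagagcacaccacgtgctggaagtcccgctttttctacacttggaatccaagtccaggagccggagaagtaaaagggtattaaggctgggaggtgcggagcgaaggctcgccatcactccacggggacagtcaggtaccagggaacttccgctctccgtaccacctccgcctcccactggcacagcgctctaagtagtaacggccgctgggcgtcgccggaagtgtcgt
Gna12 promoter: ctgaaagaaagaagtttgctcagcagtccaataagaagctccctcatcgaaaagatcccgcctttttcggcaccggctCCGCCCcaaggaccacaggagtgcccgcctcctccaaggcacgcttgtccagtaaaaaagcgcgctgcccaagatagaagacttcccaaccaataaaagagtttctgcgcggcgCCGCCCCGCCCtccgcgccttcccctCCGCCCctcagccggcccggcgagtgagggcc
Gnai1 promoter: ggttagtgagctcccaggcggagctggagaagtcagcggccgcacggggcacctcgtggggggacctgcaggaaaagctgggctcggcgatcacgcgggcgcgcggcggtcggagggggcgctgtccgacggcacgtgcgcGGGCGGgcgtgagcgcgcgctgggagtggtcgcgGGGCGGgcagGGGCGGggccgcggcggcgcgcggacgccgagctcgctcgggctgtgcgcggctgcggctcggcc
Gnao1 promoter: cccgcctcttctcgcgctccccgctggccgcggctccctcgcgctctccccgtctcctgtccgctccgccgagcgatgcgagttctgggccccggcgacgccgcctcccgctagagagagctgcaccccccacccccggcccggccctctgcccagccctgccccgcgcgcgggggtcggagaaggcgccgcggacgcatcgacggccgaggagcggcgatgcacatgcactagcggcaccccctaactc
Of the 10 genes, 7 have an entry in that table, Gnas with several starts. The GC box was found 4 times in Gna12, with 2 of the matches overlapping, 3 times in Gnai1, and not in Gnai3 or Gnao1, so it did not follow the direction of change. It occurs in 32.7% of all 32851 promoter windows of the same length. The cAMP response element TGACGTCA (1.55% of windows), its core TGACG (17.8%) and the GLI site TGGGTGGTC (0.225%), searched on both strands, had no match in these 4 windows. The core did occur in some of the start windows of Gnas, which overlap in part and are not shown. GC content was 59.6% for Gnai3, 61.2% for Gna12, 79.2% for Gnai1 and 76.4% for Gnao1, beside a median of 52.4% over all windows. A match or its lack is a description of these letters only.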

How the data were processed

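Per the labels' protocols, TruSeq libraries of 19 cerebella were prepared from 1 ug of RNA each. The authors deposited FPKM per gene in 2 tables, and each knockout shares its table with the Ctrl libraries; the unit is read from the values and the tools, since the headers do not name it. TopHat, Cufflinks and the mm9 build are named per the submitters' processing notes; versions, annotation and strand setting are not given in the sources used here. Starts in the tables count from 0 and were raised by 1.

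Knockout and Ctrl values of a comparison always came from the same table. Levels over all 3 groups (order, shares, likeness, markers) took Ctrl from the Olig1-Gnas table, and the direct knockout comparison set the tables side by side, since Ctrl 2 and Ctrl 3 are identical in both. FPKM was tested as log2(FPKM + 1) with limma 3.58.1 in R 4.3.3 (trend and robust moderation), for genes at 1 FPKM or more in 3 or more libraries, with Benjamini-Hochberg adjustment over all genes tested and calls at an adjusted p under 0.05; the script was tested on simulated data. Single values were tested by exact two-sided permutation of libraries (Python 3.11.15, scipy 1.17.1). No further scaling was applied. Exact zeros of Gnas were taken as possible failed estimates and left out, or kept as listed. Libraries are separate mice by the design text, so p-values measure spread between mice. The members, pathway lists and marker lists were chosen with earlier results of these data known. The text names all 10 members, the called genes of each pathway list with the largest changes (up to 3 a comparison), the 2 most alike genes of each of the 8 members with no listed 0, and the first gene of each marker list. Alternatives changed the offset, filter, scaling, moderation, design, depth class, Y-linked term and treatment of zeros, or left out 1 library at a time.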

Additional observations from a re-analysis of the deposited data

Results flagged for a closer look

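In 18 groups of 8 libraries (9 subunits in each knockout, Gnas left out for its zeros), 3 held a library far from the other 7 by Dixon's ratio at the 0.05 level, which chance gives in about 1 of 20 groups. Gnai1 in hGFAP-Gnas 1 was at 78.48 FPKM, and the other 7 libraries of the group at 10.8 to 41.6. Gnaz in hGFAP-Gnas 1 was at 14.92 FPKM, and the others at 4.61 to 8.91. Gnaq in Olig1-Gnas 4 was at 53.07 FPKM, and the others at 31.5 to 40.9. hGFAP-Gnas 1 also had the highest summed neuron markers of the knockouts, 2395 FPKM, and Olig1-Gnas 4 the lowest, 65.8 FPKM. The sums of granule neuron progenitor (22.96 FPKM), dividing cell (9.11 FPKM) and microglia and macrophage markers (86.2 FPKM) were lowest among the knockouts in hGFAP-Gnas 1. The part of these marker levels in the outlying values was not tested.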

How the results depend on the processing

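In Olig1-Gnas against Ctrl, 211 of 230 values of the 10 genes under other settings kept their direction and side of the threshold, 14 lost a call, all of Gnaq, and 1 gained one, Gnas with zeros as missing. The 4 that turned sign were Gna11 (-0.069 under upper quartile scaling, -0.066 under quantile normalization, -0.044 with a replicate block) and Gnas with zeros as listed in the shallower libraries (4.16). For hGFAP-Gnas 160 of 207 kept their side, 47 lost a call and none turned sign; of the 7 calls, 0 were left in the deeper libraries, 3 in the shallower ones, and 0 to 7 when 1 library was left out, 0 without Ctrl 1, Ctrl 2 or Ctrl 3. Between knockouts 277 of 279 stayed uncalled with their sign, and Gnai2 turned (-0.0051 under quantile normalization, -0.078 with a Y-linked term). The causes were not tested.

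The Gnas difference above 0 in Olig1-Gnas was -2.67 with zeros as listed and -3.90 to -3.33 with 1 library left out. Without any 1 of the Olig1-Gnas libraries the two-sided exact permutation p was 0.0667, the smallest that 15 arrangements allow. The Gnas difference in hGFAP-Gnas was -2.54 with zeros as listed, -4.28 with an offset of 0.1 FPKM and -4.11 with Ctrl 1 at its value in the other table. That last setting was chosen after seeing the data. The ratio of Gnai2 to Gnao1 differed by 2.65 (deeper) and 2.64 (shallower) in Olig1-Gnas and by 2.15 and 1.69 in hGFAP-Gnas.

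Over all genes, calls fell to 5141 in the shallower libraries for Olig1-Gnas, and for hGFAP-Gnas to 6 (deeper) and 2277 (shallower), with 818 without Ctrl 2, 1049 without Ctrl 1, 1924 without Ctrl 3 and 8164 without hGFAP-Gnas 1. Between knockouts they were 178 with all groups in 1 fit, 166 with a depth term, 3 in the deeper libraries, 3 with a Y-linked term and 11 to 104 with 1 library left out. Upper quartile scaling moved the median change of all genes from 0.22 to 0.06 (Olig1-Gnas) and from 0.19 to 0.07 (hGFAP-Gnas), and the share of higher calls from 60.5 to 52.0% and from 67.1 to 58.1%; quantile normalization gave 50.6 and 49.0%.

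The labels give the groups the same replicate numbers. Deviations of same-numbered libraries from their group means correlated weakly (r -0.171 to 0.254). Some libraries were most alike to their own number, as hGFAP-Gnas 7 was to Olig1-Gnas 7 (r = 0.254), and others to a different number. Such correlations cannot show whether the numbers pair the mice, and the main fits did not use them. With a replicate block, 0 members and 0 of all genes were called for hGFAP-Gnas, 8394 genes for Olig1-Gnas and 25 between knockouts. Ctrl has only the numbers 1 to 3, so with the block both comparisons with Ctrl rest on the libraries of these numbers. They do not test a pairing of all mice.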
